A study of Homo sapiens with 6 samples.

Results

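MAN1C1, MAN1A1, MAN1A2, MAN1B1, MAN2A1, MAN2A2, MGAT1, MGAT2, MGAT4B and MGAT5 encode the mannosidases and N-acetylglucosaminyltransferases that trim and branch N-linked glycans. They are 10 of the 19775 genes with a probe set of their own on the array, and their 25 probe sets are among 54675. Members were found by gene symbol, and each gene was represented by the probe set with the highest mean over the 6 arrays. All 10 passed the filter on low values, a mean log2 signal of 4.73, and so were among the 14513 genes tested. The family was chosen on the log2 values of MAN1C1, which differed between the groups in these same arrays. Its differences are therefore given as a description, with no p-value, and the tests below concern the other 9 genes. Where all 10 genes are counted, the count holds MAN1C1 by choice.

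The arrays measured RNA of cultured human glioma cells in 3 groups of 2. U87MG is an established glioblastoma line, grown here in medium with 10% fetal bovine serum. U87MGL, labelled non-invasive, and U87MGR, labelled highly invasive, were raised from U87MG by 4 rounds of injection into the left striatum of nude mice, recovery of the tumour cells and culture. The hosts were 6-week-old BALB/c nu/nu mice. None of the groups is labelled with a genetic change or a drug. Both derivatives were thus passaged through mouse brain and U87MG was not, so that comparisons with U87MG hold passage as well as invasiveness. The labels give replicates 1 and 2 of each derivative names of their own (U87MGL2 and U87MGL3, U87MGR2 and U87MGR3). Whether these are sublines or passages is not stated. The spread within a derivative therefore holds any difference between the cells so named. U87MG replicates are labelled biological, with no word on separate cultures, so that p-values measure the spread among these 6 samples.

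An N-glycan is attached to a protein in the endoplasmic reticulum as a preformed mannose-rich oligosaccharide. Class I mannosidases then remove alpha-1,2-linked mannoses, MAN1B1 acting early and MAN1A1, MAN1A2 and MAN1C1 in the Golgi. MGAT1 adds the first N-acetylglucosamine, MAN2A1 and MAN2A2 remove further mannoses, and MGAT2, MGAT4B and MGAT5 add the next branches. Branched glycans of the MGAT5 type on surface receptors are ligands of galectins and have long been studied in tumour cell adhesion and migration.

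MAN1C1 is shown with its promoter sequences because it is the gene with the large difference and because its 2 probe sets differed in the size of that difference. RefSeq gives the gene 2 transcription starts in the table used here, both on the plus strand of chromosome 1 in GRCh38.p14, and the probe table does not say which transcripts each probe set reads. The sequences run from 250 bases before to 50 bases after each start. Capitals mark the GC box GGGCGG, searched on both strands.
MAN1C1 upstream start, chr1:25616541-25616840: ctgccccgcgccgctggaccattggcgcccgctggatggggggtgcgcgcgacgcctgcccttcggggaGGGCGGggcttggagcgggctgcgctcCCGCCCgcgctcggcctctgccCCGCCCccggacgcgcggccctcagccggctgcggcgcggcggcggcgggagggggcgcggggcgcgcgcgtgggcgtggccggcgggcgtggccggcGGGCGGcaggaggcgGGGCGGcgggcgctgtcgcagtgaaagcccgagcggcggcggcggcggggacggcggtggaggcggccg
MAN1C1 downstream start, chr1:25695905-25696204: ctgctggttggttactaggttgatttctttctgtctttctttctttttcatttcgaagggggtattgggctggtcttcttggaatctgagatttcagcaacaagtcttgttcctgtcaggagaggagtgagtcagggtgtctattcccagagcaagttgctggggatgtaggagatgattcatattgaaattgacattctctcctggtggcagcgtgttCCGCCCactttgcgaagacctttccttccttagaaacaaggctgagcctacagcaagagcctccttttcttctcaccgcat
The upstream window holds 5 GC boxes and 57 CpG dinucleotides and the downstream window 1 and 5. Of 35116 promoter windows of this length in the table, 45.0% hold at least 1 GC box, and the median number of CpG dinucleotides is 14. A match in these letters is a description of the sequence only.

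Array medians lay between 5.29 and 5.35. Spiked-in control RNA, summarised over 21 probe sets, put both U87MGL arrays and U87MGR replicate 1 close together (distances of 0.68 to 1.05) and U87MG replicate 1 close to U87MGR replicate 2 (0.86), with distances of 4.12 or more between these sets and to U87MG replicate 2. Differences within these spike-in sets, or with the sets as a block in the fit, are given beside the results that they turn or move most. No U87MGL array shares a set with a U87MG array. With the sets as a block, U87MGL against U87MG therefore passes through the U87MGR arrays, which lie in different sets, and takes up the gap between them. RNA integrity was read from the GAPDH controls as 3′ minus 5′ signal, which came to 0.24 for U87MGR replicate 2 and to between 0.03 and 0.07 elsewhere. The same difference for the actin controls did not set that array apart: it was 0.25 there, -0.01 on U87MG replicate 1 and 0.22 to 0.39 on the other 4 arrays, highest on U87MGL replicate 1. The glioma label was checked against marker genes: VIM, CD44 and EGFR were at log2 signals of 9.21 or higher on every array, whereas S100B and AQP4 were below the filter and GFAP, SOX2 and OLIG2 lay between 4.77 and 5.67, close to it. Of this list limma called SLC1A3, a glutamate transporter, lower than in U87MG in both derivatives (-1.07 in U87MGL and -1.40 in U87MGR).

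MAN1C1, a Golgi class I mannosidase, was low in the non-invasive cells and nearer to the parental level in the invasive cells. Its log2 signal was 7.91 and 8.35 in U87MG, 5.21 and 4.70 in U87MGL and 7.41 and 7.60 in U87MGR, in the order of the replicates. The 3 groups did not overlap, and both U87MGL arrays lay more than 2 log2 units below every other array. The group means were 8.13 ± 0.31 in U87MG, 4.95 ± 0.36 in U87MGL and 7.51 ± 0.14 in U87MGR (SD, n = 2). MAN1C1 was thus 9.03-fold lower in U87MGL than in U87MG, 5.86-fold higher in U87MGR than in U87MGL and 1.54-fold lower in U87MGR than in U87MG. Comparisons that involve U87MGL share its 2 arrays and are not separate pieces of evidence. By absolute fold change MAN1C1 was the 14th of 14513 genes for U87MGL against U87MG, the 17th for U87MGR against U87MGL and the 2023rd for U87MGR against U87MG.

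The low level of MAN1C1 in U87MGL sat near the bottom of the range in which genes were tested. In U87MGL 48.7% and 40.4% of all probe sets on the array were dimmer, against 77.9% and 82.0% in U87MG and 73.2% and 75.5% in U87MGR. The second array of U87MGL was below the filter of 4.73. The fold changes hold what the array could show at that level, and in RNA of whole cultures fewer cells with the transcript and less transcript per cell cannot be told apart.

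The dimmer of the 2 MAN1C1 probe sets had the same order of groups with smaller differences than the brighter one. It read 7.04 and 7.59 in U87MG, 6.02 and 5.73 in U87MGL and 6.84 and 6.88 in U87MGR. The groups again did not overlap. On this probe set MAN1C1 was 2.72-fold lower in U87MGL than in U87MG, 1.98-fold higher in U87MGR than in U87MGL and 1.37-fold lower in U87MGR than in U87MG. The direction was shared by both probe sets, and the size was not: for U87MGR against U87MGL it was 2.55 on the log2 scale with one and 0.98 with the other.

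**Figure D1:**
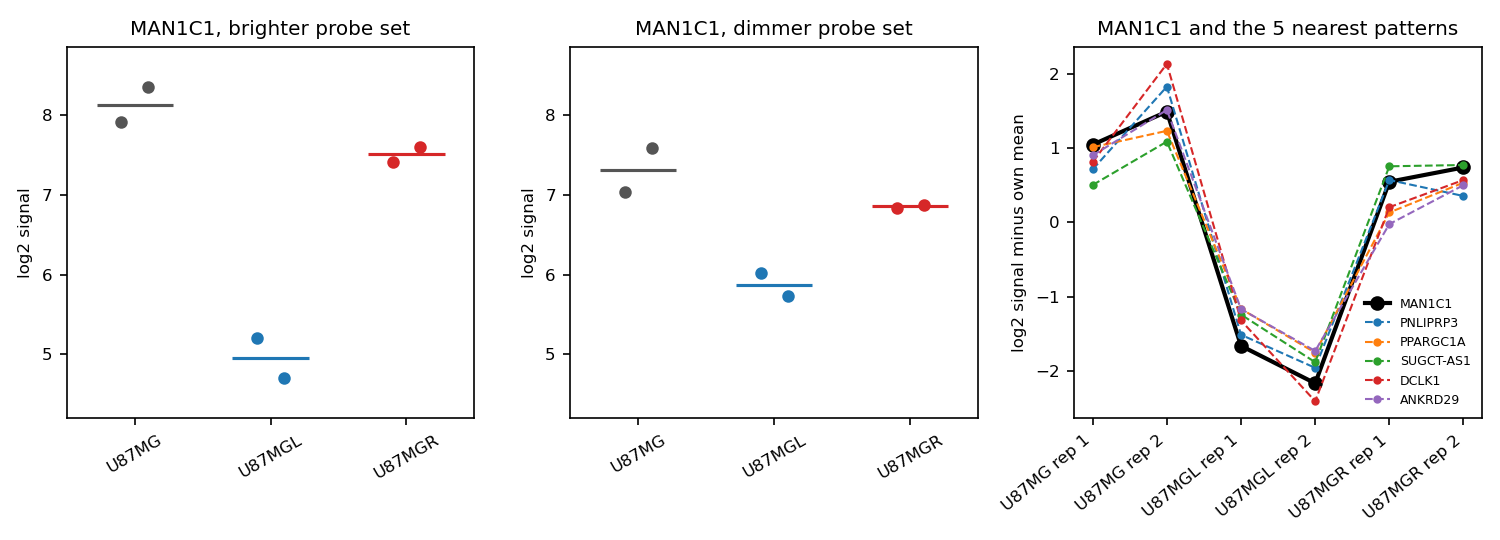
Log2 signal of the 2 MAN1C1 probe sets by group (left and middle; points are arrays, lines are group means) and MAN1C1 with the 5 genes nearest to it in pattern (right; log2 signal minus each gene's own mean over the 6 arrays, with lines that only join points of a gene). On both probe sets the U87MGL arrays are the lowest and the U87MG arrays the highest, and the differences are larger on the brighter one.

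The MAN1C1 difference between the derivatives was also read with single arrays left out, as a description. Both U87MGL arrays lay below both U87MGR arrays, so it could change in size but not in sign. The log2 difference of U87MGR from U87MGL was 2.80 without U87MGL replicate 1, and 2.30 without U87MGL replicate 2. It was 2.65 when U87MGR replicate 1 was left out. Leaving out U87MGR replicate 2 gave 2.45, which is also the difference within the larger spike-in set. Within the set of U87MG replicate 1 and U87MGR replicate 2, MAN1C1 differed by -0.31 in place of -0.62.

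The limma fit was one model over the 6 arrays, with p-values adjusted by the Benjamini-Hochberg method over all genes tested. Of the 9 genes other than MAN1C1 it called 0 in U87MGR against U87MGL, where 0.158% of all genes were called, 0 in U87MGR against U87MG (3.30%) and 0 in U87MGL against U87MG (4.82%). At an unadjusted p under 0.05 limma gave 1 of the 9, MGAT2, in the first (8.85% of all genes) and 0 in the others (20.8% and 23.3%). With MAN1C1 counted in, the calls were 1, 0 and 1 of 10. MAN1C1 was chosen for these differences, so nothing is read from that gene's place in the counts. The count of 1 in U87MGR against U87MGL became 0 without any one of the 4 arrays compared, and both counts of 1 became 0 with the spike-in sets as a block.

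**Figure D2:**
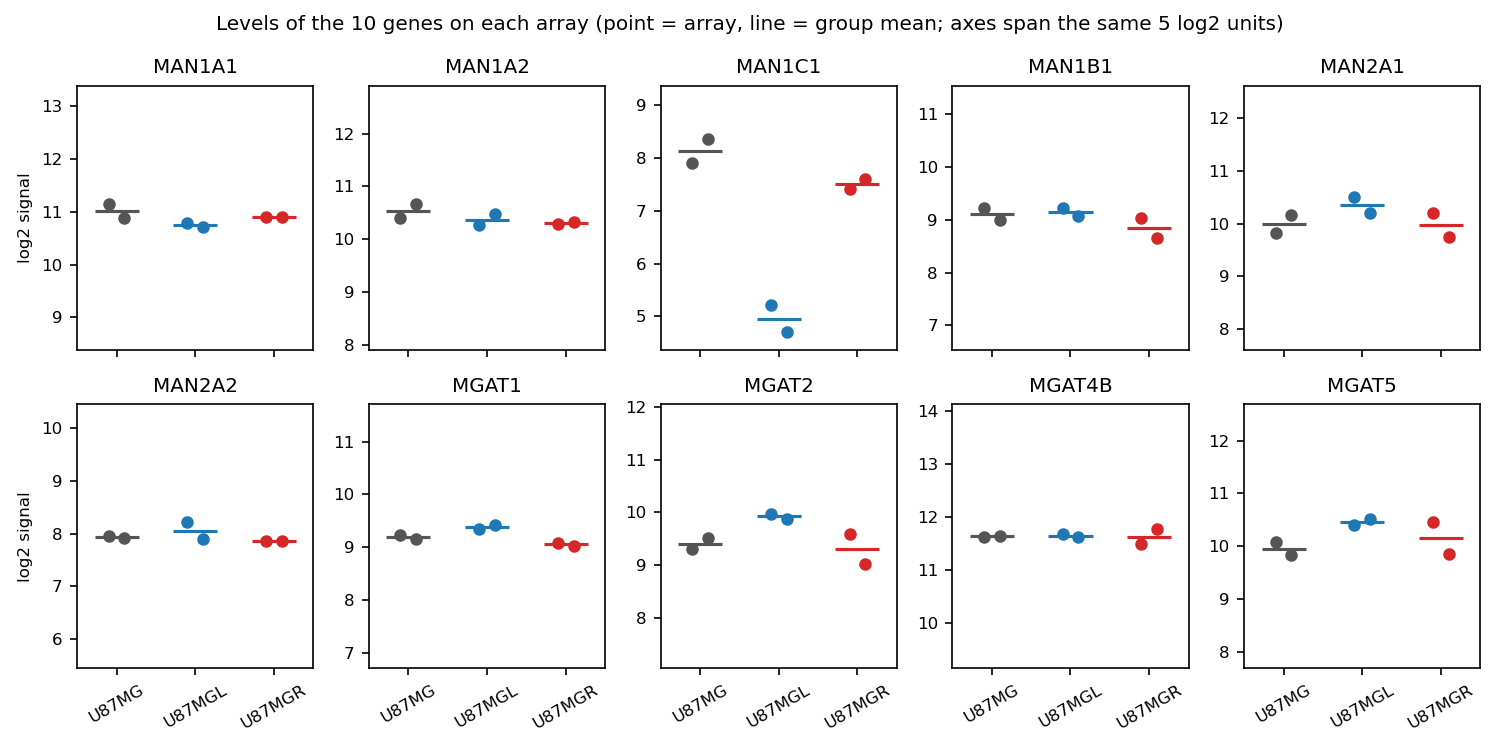
Log2 signal of each of the 10 genes on each array (points), with the mean of each group (lines). Every vertical axis spans the same number of log2 units, so that distances can be compared between panels; levels cannot be compared between genes, since probe sets differ in brightness. MAN1C1 is the one gene whose groups lie more than 1 log2 unit apart.

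On their brightest probe sets the other class I mannosidases stayed within 0.30 log2 units in all 3 comparisons. Their further probe sets ran from -0.49 (MAN1B1, U87MGR against U87MGL) to 0.44 (MAN1A2, U87MGL against U87MG). MAN1A1, a Golgi enzyme like MAN1C1, read 11.14 and 10.88 in U87MG, 10.78 and 10.71 in U87MGL and 10.90 and 10.89 in U87MGR. U87MGL was the lowest group here too, without overlap with either other group, but by -0.26 against U87MG (SE 0.16, limma adjusted p = 0.364). U87MGR differed from U87MGL by 0.15 (95% interval -0.23 to 0.53, limma adjusted p = 0.83), an interval that leaves out a change of the size seen in MAN1C1.

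MAN1A2, a second Golgi mannosidase of the same class, read 10.41 and 10.66 in U87MG, 10.27 and 10.47 in U87MGL and 10.28 and 10.32 in U87MGR. U87MGL overlapped both other groups, and its differences did not pass the test (-0.16 against U87MG, limma adjusted p = 0.601). MAN1B1, which trims in the early secretory pathway and takes part in the disposal of misfolded glycoproteins, read 9.23 and 9.00 in U87MG, 9.22 and 9.06 in U87MGL and 9.04 and 8.66 in U87MGR. The second U87MGR array was the lowest of the 6. U87MGR differed from U87MGL by -0.29 (SE 0.19, limma adjusted p = 0.708) and from U87MG by -0.27 (SE 0.19, limma adjusted p = 0.478). Within the spike-in sets these differences were -0.10 and -0.57.

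The class II mannosidases MAN2A1 and MAN2A2, which clear mannoses after MGAT1 has acted, were highest on average in U87MGL on their brightest probe sets. MAN2A1 read 9.83 and 10.16 in U87MG, 10.51 and 10.20 in U87MGL and 10.19 and 9.75 in U87MGR. Both U87MGL arrays lay above the other 4, though the lower of them exceeded the first U87MGR array by less than 0.01. U87MGL differed from U87MG by 0.36 (95% interval -0.16 to 0.88, limma adjusted p = 0.369) and U87MGR from U87MGL by -0.38 (95% interval -0.90 to 0.14, limma adjusted p = 0.673). The second was -0.16 within the spike-in set, and the first became -0.0829 and 0.0819 with 2 and 3 spike-in sets as a block.

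MAN2A2 read 7.95 and 7.91 in U87MG, 8.21 and 7.90 in U87MGL and 7.86 and 7.87 in U87MGR. One U87MGL array stood above the rest and the other did not. Its differences of 0.13 for U87MGL against U87MG and -0.20 for U87MGR against U87MGL did not pass (limma adjusted p = 0.692 and 0.776).

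On their brightest probe sets the 4 branching transferases had their highest mean in U87MGL, and none of their differences passed the test over all genes. MGAT1, which opens the way to hybrid and complex glycans, read 9.22 and 9.16 in U87MG, 9.34 and 9.42 in U87MGL and 9.08 and 9.03 in U87MGR. The 3 groups did not overlap, and the replicates differed by at most 0.09. U87MGR differed from U87MGL by -0.32 (SE 0.15, limma adjusted p = 0.596), U87MGL from U87MG by 0.19 (limma adjusted p = 0.492) and U87MGR from U87MG by -0.14 (limma adjusted p = 0.643).

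MGAT2, which starts the second antenna, had the largest difference between the derivatives after MAN1C1. It read 9.30 and 9.51 in U87MG, 9.97 and 9.88 in U87MGL and 9.60 and 9.03 in U87MGR. Both U87MGL arrays lay above the other 4, and the U87MGR arrays lay 0.57 apart. The difference of U87MGR from U87MGL was -0.61 (95% interval -1.13 to -0.10, unadjusted p = 0.0264, limma adjusted p = 0.475) and that of U87MGL from U87MG was 0.51 (95% interval -0.0019 to 1.03, limma adjusted p = 0.216). The first became -0.32 without U87MGR replicate 2, which is also its value within the spike-in set. The second became -0.0597 and 0.0448 with 2 and 3 spike-in sets as a block.

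MGAT5, which makes the beta-1,6 branch, read 10.08 and 9.83 in U87MG, 10.40 and 10.51 in U87MGL and 10.46 and 9.85 in U87MGR. The first U87MGR array was at the level of U87MGL and the second at that of U87MG. U87MGL differed from U87MG by 0.50 (95% interval -0.04 to 1.04, limma adjusted p = 0.246), U87MGR from U87MGL by -0.30 (limma adjusted p = 0.754) and U87MGR from U87MG by 0.20 (limma adjusted p = 0.67). All 3 signs turned with the spike-in sets. The last 2 became 0.0079 and -0.23 within the sets. The first became -0.12 and -0.24 with 2 and 3 sets as a block, where it takes up the gap of 0.62 between the U87MGR arrays. MGAT4B, which makes a branch on the first antenna, read 11.62 and 11.64 in U87MG, 11.68 and 11.62 in U87MGL and 11.48 and 11.78 in U87MGR. Its groups overlapped in every comparison, and the 3 differences lay between -0.02 and 0.02 with 95% intervals that stayed within 0.41 of 0. Within the spike-in sets U87MGR differed by -0.17 from U87MGL and by 0.15 from U87MG, and U87MGL differed from U87MG by 0.31 and 0.32 with 2 and 3 sets as a block.

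**Figure D3:**
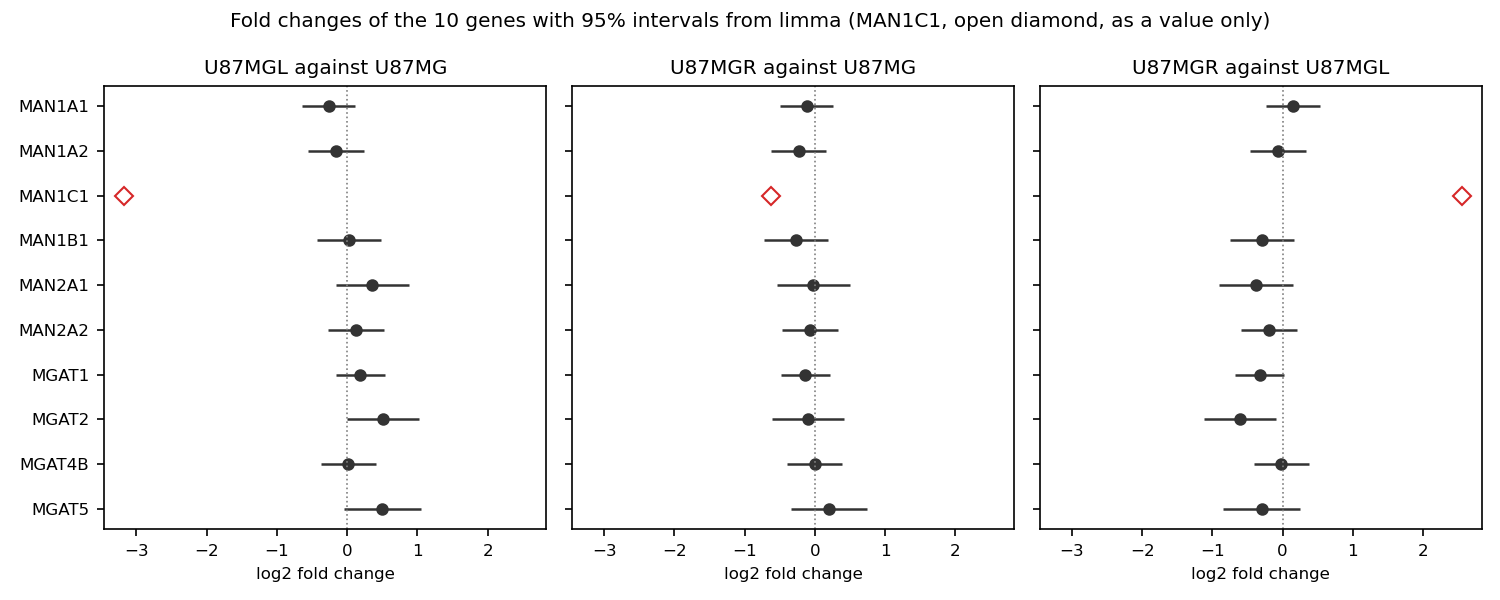
Log2 fold changes of the 10 genes in the 3 comparisons, with 95% intervals from limma for 9 of them. MAN1C1 (open diamond) is shown without an interval because it was chosen for its difference. MAN1C1 lies at -3.17, -0.62 and 2.55, and the other 9 genes lie between -0.61 and 0.51.

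Seen together, most of the 9 other genes lay on the opposite side of 0 from MAN1C1 in both comparisons that involve U87MGL, and on the same side in U87MGR against U87MG. In U87MGR against U87MGL, 8 of the 9 were below 0, with a median log2 fold change of -0.29, against 7206 of 14513 genes and a median of 0.00 for all genes. In U87MGL against U87MG, 7 of the 9 were above 0 with a median of 0.13, against 6985 of 14513 and -0.02. In U87MGR against U87MG, 8 were below 0 with a median of -0.10, against 7347 and -0.01. These counts include genes whose differences did not pass on their own, and the comparisons share arrays. Single arrays and the spike-in sets moved these splits. In U87MGR against U87MGL the median was -0.16 without U87MGR replicate 2, with 7 below 0. In U87MGL against U87MG 4 of the 9 were above 0 without U87MGL replicate 1, with a median of -0.02, and 5 were above 0 under quantile normalization, with a median of 0.03. With 2 spike-in sets as a block most of the 9 lay below 0 in that comparison, on the side of MAN1C1. Only MAN2A2 (0.13), MGAT1 (0.13) and MGAT4B (0.31) were above it. With 3 sets MAN1A1, MAN1B1 and MGAT5 were below 0 and the rest above. In U87MGR against U87MG 5 of the 9 were below 0 without U87MG replicate 2 and 6 without U87MGR replicate 2. Groups did not overlap for 6 of the 9 genes in U87MGR against U87MGL, where 46.6% of all genes did not overlap. Of these, 1 was higher and 5 were lower in U87MGR, against 23.3% of all genes in either direction. In U87MGR against U87MG it was 3 of 9 (48.4% of all genes), with 0 higher and 3 lower, against 24.2% each way. In U87MGL against U87MG it was 5 of 9 (56.4% of all genes), with 4 higher and 1 lower, against 28.1% and 28.3%.

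Further probe sets of the same genes gave a check on these values. Of the 25 probe sets, 23 passed the filter, and 1 each of MAN1A2 and MGAT5 did not. Fitted each as its own feature, none of the 21 that belong to the other 9 genes passed in any comparison, with the smallest limma adjusted p at 0.214. Of those 21, 18 were below 0 in U87MGR against U87MGL, 16 in U87MGR against U87MG and 6 in U87MGL against U87MG. With 1 probe set a gene, 7206, 7347 and 7528 of all 14513 genes were below 0 in these comparisons. Several of the 21 read the same gene, so they are not separate pieces of evidence. All 3 MGAT2 probe sets were below 0 there, at -0.61, -0.53 and -0.40, as were all 3 of MAN2A1, at -0.38, -0.54 and -0.90. The dimmest MAN2A1 probe set had the largest difference of the 21. It read 8.49 and 7.76 in U87MG, 9.48 and 9.12 in U87MGL and 9.06 and 7.74 in U87MGR, with gaps of 0.72 and 1.32 between the replicates of U87MG and U87MGR. For MAN1A1 the probe sets differed in sign, 0.15 on the brighter and -0.23 on the dimmer, and for MAN1A2 they ran from -0.38 to 0.25. The dimmer MAN2A2 probe set was highest in U87MG, with means of 6.54 there, 6.37 in U87MGL and 6.18 in U87MGR. The dimmer MGAT4B probe set was highest in U87MGR, at 10.80, against 10.67 in U87MGL and 10.68 in U87MG.

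U87MGR replicate 2 was the lowest of the 6 arrays on 13 of the 23 probe sets, against 21.1% of all 32746 probe sets that passed the filter. Over all probe sets U87MG replicate 2 was the lowest most often (26.4%), and it was so on 3 of the 23. These 13 belong to MAN1A1, MAN1A2, MAN1B1, MAN2A1, MAN2A2, MGAT1 and MGAT2. Its GAPDH 3′ minus 5′ difference was the highest of the 6 arrays, at 0.24, and its actin difference of 0.25 lay among those of the others. The part of RNA quality in these levels was not tested. MAN1C1 read higher on that array than on U87MGR replicate 1 with both probe sets.

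The rest of the N-glycan pathway was examined through a list of 108 genes by role, of which 96 were tested. It held few calls: 0 higher and 0 lower in U87MGR against U87MGL, 0 and 2 in U87MGR against U87MG and 1 and 2 in U87MGL against U87MG. All genes tested were called higher and lower in 0.0413% and 0.117%, 1.86% and 1.44%, and 3.02% and 1.80% of cases in these comparisons. At an unadjusted p under 0.05 limma gave 2 higher and 2 lower in U87MGR against U87MGL, against 567 and 717 of the 14513 genes. It gave 3 and 18 in U87MGR against U87MG, against 1598 and 1420 genes, and 8 and 13 in U87MGL against U87MG, against 1914 and 1466. The median log2 fold changes were -0.12, -0.14 and -0.06, against 0.00, -0.01 and -0.02 over all genes.

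ST3GAL6, a sialyltransferase that caps galactose, fell in both derivatives on its brightest probe set. It read 7.46 and 6.98 in U87MG, 5.66 and 5.87 in U87MGL and 6.18 and 5.72 in U87MGR, so that both U87MG arrays lay above the other 4. It was 2.73-fold lower in U87MGL (log2 fold change -1.45, SE 0.23, limma adjusted p = 0.0234) and lower in U87MGR (-1.26, SE 0.23, limma adjusted p = 0.0399) than in U87MG. These comparisons share the U87MG arrays. With the mean of the ST3GAL6 probe sets the differences were smaller and neither was called. They were -0.77 in U87MGL (limma adjusted p = 0.0707) and -0.86 in U87MGR (limma adjusted p = 0.0649).

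UAP1L1, a relative of the enzyme that makes UDP-N-acetylglucosamine, the sugar donor of the MGAT enzymes, fell as well. It read 9.07 and 9.02 in U87MG, 8.08 and 8.10 in U87MGL and 8.29 and 8.03 in U87MGR. It was 1.94-fold lower in U87MGL (log2 fold change -0.95, SE 0.16, limma adjusted p = 0.0258) and 1.85-fold lower in U87MGR (-0.88, SE 0.16, limma adjusted p = 0.0383). ALG10, a glucosyltransferase that completes the lipid-linked precursor, rose 2.69-fold in U87MGL against U87MG (log2 fold change 1.43, SE 0.25, limma adjusted p = 0.0283). It read 5.33 and 4.89 in U87MG, 6.46 and 6.62 in U87MGL and 6.14 and 5.55 in U87MGR. ALG10 has a near-identical copy, ALG10B, that a probe set could also read. Over 17 alternative fits the call of ST3GAL6 held in 9 for U87MGL and 8 for U87MGR and that of UAP1L1 in 9 and 6, and the call of ALG10 held in 10 of 16, while each difference kept its sign.

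The other roles held no call in any comparison, among them the other branching and bisecting enzymes (2 of 5 tested), the lysosomal, cytosolic and endo-acting mannosidases (7 of 7), the oligosaccharyltransferase (12 of 12), the endoplasmic reticulum glucosidases and quality control genes (17 of 17), the galectins (5 of 5) and the conserved oligomeric Golgi complex, which keeps Golgi enzymes in place (8 of 8). MGAT3, the bisecting enzyme, differed by -0.25 for U87MGL against U87MG and MGAT5B, a relative of MGAT5, by 0.18 for U87MGR against U87MGL (limma adjusted p = 0.452 and 0.918). TUSC3, a subunit of the oligosaccharyltransferase, read 5.24 and 5.79 in U87MG, 5.22 and 5.22 in U87MGL and 6.59 and 7.46 in U87MGR. Both U87MGR arrays lay above the other 4, at differences of 1.81 from U87MGL (SE 0.31, limma adjusted p = 0.132) and 1.51 from U87MG (SE 0.31, limma adjusted p = 0.0502).

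Among the quality control genes, the ubiquitin ligase subunit FBXO6 differed by 1.24 between U87MGR and U87MGL (limma adjusted p = 0.224) and the chaperone CALR by -1.80 between U87MGL and U87MG (limma adjusted p = 0.11), with 12.16 and 10.45 on the U87MG arrays. LGALS3BP, a galectin ligand, differed by -0.81 between U87MGR and U87MG, and COG6 of the Golgi complex by -0.79 (limma adjusted p = 0.0728 and 0.0637). MAN2B1, the lysosomal mannosidase, differed by -0.56 in that comparison (limma adjusted p = 0.186). Of the 20 tested genes of precursor assembly, 19 were below 0 in U87MGR against U87MGL, with a median of -0.26. None was called, and 1 was at an unadjusted p under 0.05 in limma. In that comparison 66 of the 96 other N-glycan genes, which include these 20, and 7206 of all 14513 genes were below 0. Without U87MGR replicate 2, which is also the value within the spike-in set, 14 of the 20 were below 0 and their median was -0.10. There 57 of the 96 and 7306 of all genes were below 0.

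**Figure D4:**
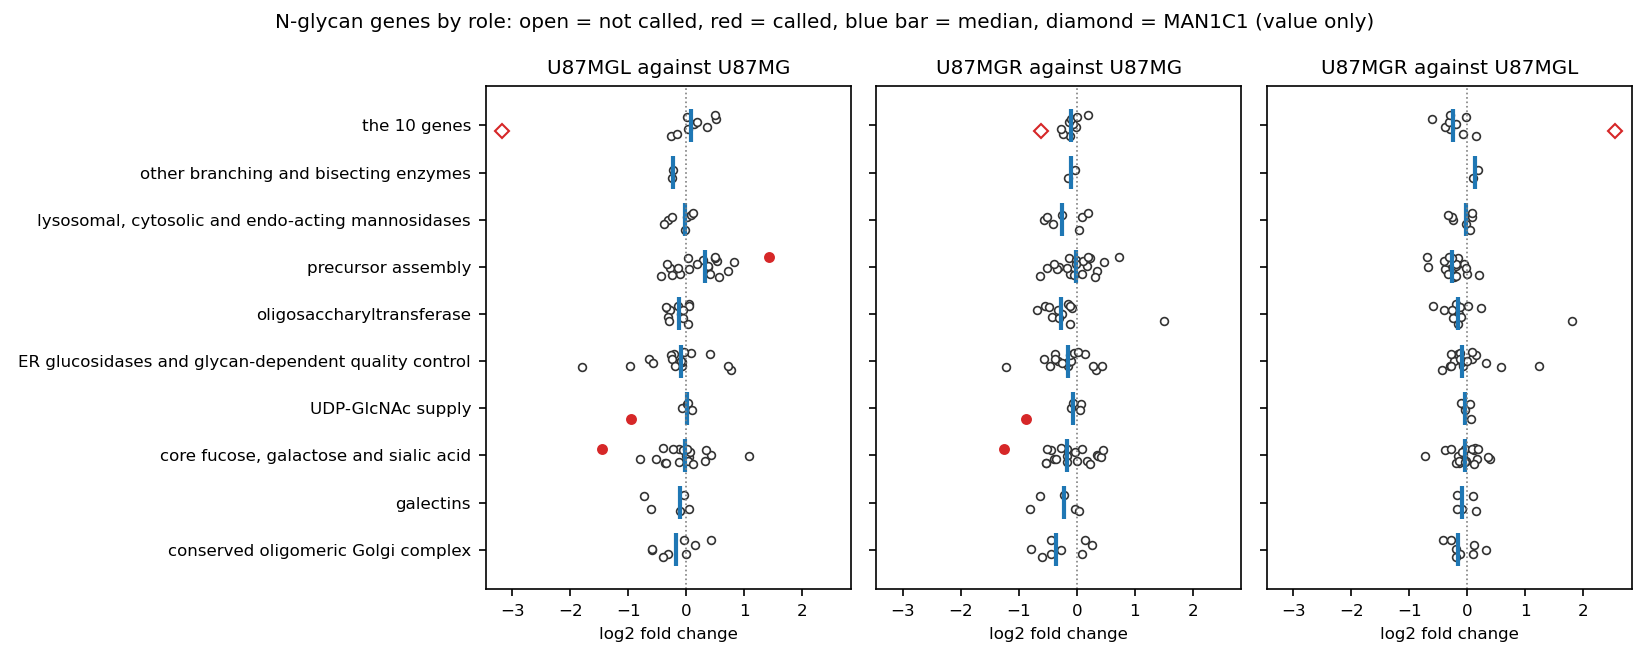
Log2 fold changes of the 10 genes (top row) and of 96 other N-glycan genes by role (points), in the 3 comparisons. Red points (ST3GAL6, UAP1L1 and ALG10) were called by limma, open points were not, and blue bars are the median of each row. MAN1C1 is an open diamond, shown as a value only.

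The tested genes whose pattern over the 6 arrays was nearest to MAN1C1 came from outside the pathway. Only the 10 members and 96 other pathway genes are among the 14513 tested, so nothing about the pathway is read from this. Nearness was the Euclidean distance between log2 values after each gene's own mean was removed. The 5 nearest were PNLIPRP3, a pancreatic lipase relative (distance 0.66), PPARGC1A, a transcriptional coactivator of mitochondrial genes (0.83), SUGCT-AS1, an antisense RNA gene (0.87), DCLK1, a microtubule-associated kinase (0.89), and ANKRD29 (0.91). The distance of MAN1C1 itself from a flat line was 3.40. PNLIPRP3 read 9.80 and 10.91 in U87MG, 7.58 and 7.14 in U87MGL and 9.66 and 9.44 in U87MGR. PPARGC1A read 6.79 and 7.01, 4.62 and 4.03, and 5.91 and 6.32 in the same order. Each of the 5 was lowest on the U87MGL arrays, by 1.68 to 2.32 on average against U87MGR, which follows from their choice by nearness to MAN1C1.

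In both comparisons that involve U87MGL, genes next to MAN1C1 on chromosome 1 had smaller differences, as had 99.9% of all genes tested. MAN1C1 was chosen for its difference, so nothing about the region is read from this. The 3 nearest tested genes on either side, in the gene order of GRCh38.p14, were RHD, TMEM50A and MACO1 on one side and SELENON, MTFR1L and AUNIP on the other. They differed by -0.60 to 0.50 in U87MGL against U87MG and by -0.13 to 0.27 in U87MGR against U87MGL, and none passed in limma (smallest adjusted p = 0.171). In U87MGL against U87MG the largest difference in the direction of MAN1C1 was that of SELENON, an endoplasmic reticulum selenoprotein, at -0.60.

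Markers of other brain cells were examined because the derivatives came through mouse brain, although the array was designed for human RNA. Of the markers tested, 5 of 10 for microglia and macrophages, 5 of 8 for endothelium, 6 of 8 for neurons and 3 of 8 for oligodendrocytes, limma called none in any comparison. At an unadjusted p under 0.05 it gave 1 neuron marker higher in U87MGR against U87MGL, where 8.85% of all genes reached that level. It gave 2 neuron markers higher in U87MGR against U87MG (20.8% of all genes). In U87MGL against U87MG (23.3% of all genes) it gave 1 microglia marker lower, 1 neuron marker higher and 1 oligodendrocyte marker lower. The summed level of the endothelial list was lowest in U87MGL, as MAN1C1 was: it ranged from 8.15 to 8.23 there, from 8.29 to 8.58 in U87MG and from 8.30 to 8.42 in U87MGR on the log2 scale. The sums of the other lists did not place U87MGL below both other groups without overlap. Of the 8 endothelial markers, PECAM1 (6.12 to 6.51), KDR, TEK, VWF and CLDN5 passed the filter, and CDH5, TIE1 and EMCN were below it. In U87MGL against U87MG PECAM1 differed by -0.03, KDR by 0.03, VWF by -0.205, TEK by -0.54 and CLDN5 by -0.60. On the U87MG arrays TEK read 5.85 and 6.66 and CLDN5 4.76 and 6.16. The part of other cells in the level of MAN1C1 was not tested.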

How the data were processed

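RNA of 6 cultures was read on single-colour arrays, 2 per group. Samples were grouped by their titles. The authors deposited 1 log2 signal per probe set and array, 54675 in all, from 2.38 to 14.6. Array medians were nearly equal, and the normalization behind them is not stated in the labels. The signals were used as deposited, and the number of arrays limits the precision. Probe sets with 1 gene symbol (41097, against 1801 with several and 11777 with none) were named through the platform annotation, with 41043 updated by gene number; genes with only shared or no probe sets are not analysed here.

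One limma model (version 3.58.1, R 4.3.3) with a mean per group was fitted to the 14513 genes whose brightest probe set reached the 40th percentile of mean signal. It had 3 residual and 4.05 prior degrees of freedom. A gene was called at a two-sided Benjamini-Hochberg adjusted p under 0.05. Intervals are 95% intervals from that model. The script was tested on simulated data. All 10 genes are named. Of other N-glycan genes, those called are named if at most 6 per role, and for a role with none, the gene with the largest difference may be given as a value. The 5 genes nearest to MAN1C1 are named by distance. The genes, lists and spike-in sets were chosen with earlier results of these data known.

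Alternatives changed the filter, the probe set, the normalization, the variance prior, the arrays fitted, the replicate number as a block, and the spike-in sets as a block with 2 sets (U87MG replicate 2 joined to the set of U87MG replicate 1) or 3 sets (U87MG replicate 2 as a set of its own). Equally numbered arrays were correlated at 0.01, 0.11 and -0.09 after group means were removed, so that the numbers were not taken as pairs.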

Additional observations from a re-analysis of the deposited data

How the results depend on the processing

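MAN1C1 kept its sign in every alternative: 18 for U87MGR against U87MGL (1.77, from the mean of its probe sets, to 2.80) and against U87MG (-0.85 to -0.31), and 17 for U87MGL against U87MG (-3.43 to -2.31). Many of these could not move its fold change, such as a changed filter or variance prior, the replicate block, or arrays left out of the other group. MAN1C1 was chosen for its difference, so these ranges are a description and not a test. Members called by limma fell from 1 to 0 in U87MGR against U87MGL and in U87MGL against U87MG with 2 or 3 spike-in sets as a block, and ranged from 0 to 1 in the former with 1 array left out. The replicate block left the counts at 1, 0 and 1, and no other member was called under any alternative (smallest limma adjusted p = 0.158).

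The 3 calls among other N-glycan genes in U87MGL against U87MG became 0 with 2 and with 3 spike-in sets, 1 with only the groups compared and 0 to 6 with 1 array left out (6 without U87MG replicate 1, 0 without either U87MGL array, 1 without either U87MGR array). The 2 calls in U87MGR against U87MG became 0 with 2 spike-in sets, with every probe set as its own feature and with only the groups compared, and 0 to 1 with 1 array left out. The replicate block left the calls at 3 and 2. At an unadjusted p under 0.05 limma gave 21 of the 96 tested in each of the 2 comparisons. Of all genes tested it gave 20.8% in U87MGR against U87MG and 23.3% in U87MGL against U87MG.

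Of 30 member values, 16 changed sign in at least 1 alternative; none of these was called, and the cause was not tested. For U87MGL against U87MG, 2 spike-in sets gave -0.36 for MAN1B1, -0.0829 for MAN2A1, -0.0597 for MGAT2 and -0.12 for MGAT5. With 3 sets it was 0.0043 for MAN1A2, -0.47 for MAN1B1 and -0.24 for MGAT5. The mean of probe sets gave 0.0792 for MAN1A2 and -0.0241 for MAN2A2, and quantile normalization -0.0415 for MAN1B1 and -0.0147 for MGAT4B. With 1 array left out MAN1B1 ranged from -0.0865 to 0.14, MAN2A2 from -0.0306 to 0.28 and MGAT4B from -0.0161 to 0.0533.

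For U87MGR against U87MG, MGAT4B was 0.15 with 2 sets, 3 sets and within a set, 0.0571 with the mean of probe sets, 0.0105 with median centring and 0.0378 with quantile normalization. MGAT5 was -0.11 with 2 sets and -0.23 with 3 sets and within a set, and MAN2A1 was 0.0873 with the mean of probe sets. With 1 array left out MAN1A1 ranged from -0.25 to 0.0127, MAN2A1 from -0.24 to 0.20, MGAT2 from -0.38 to 0.19, MGAT4B from -0.15 to 0.15 and MGAT5 from -0.11 to 0.51.

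For U87MGR against U87MGL, the mean of probe sets gave -0.0416 for MAN1A1 and 0.0567 for MGAT4B, quantile normalization 0.0525 for MGAT4B, and 2 sets, 3 sets and values within a set 0.0079 for MGAT5. With 1 array left out MAN1A2 ranged from -0.17 to 0.0285, MGAT4B from -0.17 to 0.13 and MGAT5 from -0.61 to 0.0079.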
